A study of Mus musculus with 8 samples.

Results

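The acetylcholine receptor subunit genes Chrna1, Chrnb1, Chrnd, Chrne and Chrng, together with Musk, Lrp4, Dok7, Rapsn and Colq, were followed in mouse calf muscle. These 10 genes of the neuromuscular junction were taken by name and matched to the table by mouse Ensembl identifier. All 10 were among the 23008 mouse genes of the table, and all 10 were among the 15960 genes tested. Total RNA came from gastrocnemius of wild-type C57BL/6J mice that had received AAV9, an adeno-associated virus that reaches skeletal muscle from the blood, through the tail vein. Every animal carried GNDM, the name the labels give the packaged construct, so no group lacked virus or construct; the labels used here do not name the promoter that drives it. The guide was m31, directed at the laminin alpha-1 gene Lama1, in 4 libraries and a non-targeting control in the other 4. Tissue was collected 11 weeks after injection, and the age at injection is given as 7 weeks in one label and as 7 to 12 weeks in another. The labels state neither that each library is a separate animal nor whether animals were pooled, so p-values measure only the spread between these samples, which may be technical.

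At the neuromuscular junction, acetylcholine released by the motor nerve opens a pentameric channel in the muscle membrane. The channel is built from alpha, beta and delta subunits with either a gamma subunit, in fetal and denervated muscle, or an epsilon subunit, in innervated adult muscle. Nerve-derived agrin binds LRP4, which activates the kinase MuSK together with the adaptor DOK7, and rapsyn then holds the receptors in dense clusters. ColQ, a collagen-like tail, anchors acetylcholinesterase in the synaptic cleft. The transcripts are known to be concentrated at the few nuclei beneath the nerve ending, and after denervation Chrna1, Chrnd, Chrng and Musk are known to rise along the whole fibre. In a bulk sample, fewer junctions or nuclei expressing a gene and less RNA in each of them cannot be told apart.

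The promoters of the alpha, gamma and epsilon genes are shown because the gamma to epsilon switch is the readout that varied most here. RefSeq promoter sequences (GRCm38.p6, 250 bases before the annotated start and some after it) were matched for 6 of the 10 genes: Chrna1, Chrnb1, Chrne, Chrng, Musk and Dok7. The stretches printed stop at annotated untranslated regions. Capitals mark each E-box (CANNTG, the letters bound by myogenic factors such as MyoD and myogenin, which read the same on both strands) and each N-box core (CCGGAA on either strand, the letters bound by Ets factors such as GABP); the motifs do not overlap each other.
Chrng, chr1:87205561-87205809, plus strand: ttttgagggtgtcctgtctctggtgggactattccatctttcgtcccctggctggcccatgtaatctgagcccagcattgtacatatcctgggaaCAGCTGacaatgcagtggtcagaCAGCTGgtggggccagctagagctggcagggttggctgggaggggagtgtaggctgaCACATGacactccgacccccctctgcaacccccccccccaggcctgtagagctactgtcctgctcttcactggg
Chrna1, chr2:73580339-73580588, minus strand: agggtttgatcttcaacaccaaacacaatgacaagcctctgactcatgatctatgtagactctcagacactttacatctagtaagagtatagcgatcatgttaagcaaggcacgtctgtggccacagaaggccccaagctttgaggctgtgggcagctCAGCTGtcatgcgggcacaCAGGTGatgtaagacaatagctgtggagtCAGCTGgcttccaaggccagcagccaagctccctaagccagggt
Chrne, chr11:70619217-70619444, minus strand: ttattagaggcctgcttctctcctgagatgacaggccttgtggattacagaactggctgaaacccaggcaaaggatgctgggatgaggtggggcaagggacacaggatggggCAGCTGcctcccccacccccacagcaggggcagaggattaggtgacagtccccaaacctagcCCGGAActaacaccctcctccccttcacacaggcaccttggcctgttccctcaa
The Chrng stretch held 3 E-boxes, whose first bases lie 155, 132 and 75 bases before the RefSeq start, and no N-box core. The Chrna1 stretch also held 3 E-boxes, at 92, 73 and 44 bases before the start, and no N-box core. Chrne held 1 E-box, at 138 bases, and 1 N-box core, at 76 bases. Of the matched genes not printed, Chrnb1 and Musk each held 3 E-boxes in the 250 bases before the start. Dok7 had windows with 1 and with 0 E-boxes. No N-box core was found in these. Among 32851 RefSeq promoters, 66.2% held at least 1 E-box in the 250 bases before the start, 12.2% held 3 or more, and 12.0% held an N-box core. These matches are letters in a window and say nothing about binding in these samples.

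The targeted gene separated the groups as labelled: Lama1 had 86.5 to 295 normalised reads in the m31 libraries and 0 to 4.18 in the controls. Depth was 25157486 to 39210248 reads in genes per library, and a library held 1 to 51 reads of Chrng and 56 (Chrnd) to 1246 (Chrnb1) reads of the other endplate genes, so that counting error matters mainly for Chrng. Values below are normalised reads, that is, reads divided by the authors' size factor for the library. A pair of libraries stood apart from the rest of their groups. m31 replicate 4 had the highest summed macrophage markers (9590.3, against at most 4896 in the other m31 libraries) and matrix markers (196423 against at most 65473), and the lowest GNDM transcript of all 8 libraries (6157). Its Lama1 was also the lowest of the m31 group, at 86.5 against 209, 295 and 273 in m31 replicates 1 to 3. Control replicate 3 had the highest control sums of the same markers (6776 against at most 3302, and 67234 against at most 45928) and the highest GNDM of all 8 (37989). Each gene's difference without these libraries is given below where it turned or moved by over 1.5 times.

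No endplate gene passed the test between guides. Of the 10, 0 passed an adjusted p of 0.05 in limma, beside 0.00627% of all tested genes, which is 1 gene. At an unadjusted p under 0.05 the count was also 0 of 10, beside 6.79% of all tested genes. Without control replicate 3 it was 1 of 10, Chrng at an unadjusted limma p of 0.0463, beside 11.9% of all tested genes. With library weights it was also 1 of 10, Musk at an unadjusted limma p of 0.0332, beside 13.8%. Without both libraries it was 0 of 10, beside 10.9%. Fits with libraries left out kept the genes that passed the filter over all libraries. Chrng, with a mean of 12.6, reached the minimum of 10 only through m31 replicate 4 (40.9) and control replicate 3 (36.0). The m31 and control values overlapped in all 10, beside 3.85% of tested genes whose groups did not overlap. edgeR's quasi-likelihood test and DESeq2 on the recovered reads likewise called 0 of the 10, beside 0.00627% and 0.237% of the genes they gave an adjusted p. The difference, m31 minus control on the log2(value + 1) scale, was positive in 5 genes and negative in 5, with a median of 0.0044 beside 0.0052 over all tested genes. Leaving out Chrng, the 95% confidence intervals of the 9 others lay between -0.67 and 0.61, so changes within those bounds are not excluded. The smallest limma adjusted p of the 10 was 0.836, for Musk.

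**Figure D1:**
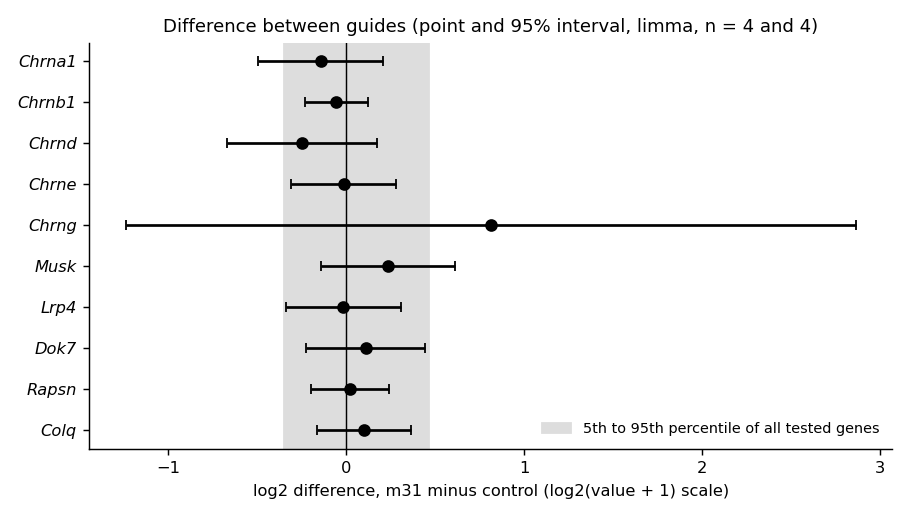
Difference between guides (m31 minus control, log2(value + 1) scale) for each of the 10 genes, with its 95% confidence interval from limma over 4 libraries with each guide; the grey band is the 5th to 95th percentile of all tested genes (-0.35 to 0.47). Every interval spans 0; that of Chrng, from -1.24 to 2.86, is the widest.

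Among the receptor subunits, Chrna1 encodes the alpha subunit, which carries the acetylcholine binding sites and is part of both the fetal and the adult receptor. Its normalised reads came to 464, 441, 565 and 534 in m31 replicates 1 to 4 and to 454, 552, 762 and 481 in control replicates 1 to 4. Control replicate 3 was the highest of the 8 libraries, and the other 3 controls lay within the m31 range. The means were 501 ± 58.1 and 562 ± 139.5 (SD, n = 4 each), a log2 difference of -0.14 ± 0.16 (SE) with limma's adjusted p = 0.889. Without control replicate 3 the log2 difference was 0.013, of the other sign, and without m31 replicate 4 as well it was -0.019. Chrna1 (ENSMUSG00000027107) lies on chr2:73563215-73580338, minus strand (GENCODE M21, GRCm38, as for all genes here).

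Chrnb1, the beta subunit that contacts rapsyn, was the steadiest of the 10. Its levels were 991, 1078, 926 and 998 normalised reads with m31, against 1029, 983, 1033 and 1098 under the control guide. The groups overlapped throughout, and the highest library was 1.19 times the lowest. The log2 difference was -0.054 ± 0.080 (SE), with limma's adjusted p = 0.917 and a 95% interval from -0.23 to 0.12, the narrowest of the 10. Leaving out single libraries moved it between -0.092 (without m31 replicate 2) and -0.018 (without m31 replicate 3), and it was -0.025 without control replicate 4. The gene (ENSMUSG00000041189) lies on chr11:69784036-69795943, minus strand.

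Chrnd, the delta subunit, was scarcer. Its values were 59.8, 74.6, 83.7 and 90.5 normalised reads with m31, against 77.8, 102, 115 and 74.6 under the control guide. m31 replicate 4 was the highest of its group and control replicate 3 the highest of all 8, with the groups overlapping. Means were 77.2 ± 13.3 and 92.3 ± 19.3 (SD, n = 4 each), and the log2 difference of -0.25 ± 0.19 (SE) did not pass (limma's adjusted p = 0.840). It was -0.14 without control replicate 3 and -0.13 without m31 replicate 1. Chrnd (ENSMUSG00000026251) lies on chr1:87190607-87200070, plus strand, next to Chrng on the same strand.

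Chrne, the epsilon subunit of the adult receptor, had 479.6, 418, 399 and 474 normalised reads in the m31 libraries and 449, 559, 359.6 and 433 in the controls. The highest library, control replicate 2, and the lowest, control replicate 3, were both controls, so the m31 values fell inside the control range. Means were 442 ± 40.28 and 450.3 ± 82.3 (SD, n = 4 each), a log2 difference of -0.012 ± 0.13 (SE) with limma's adjusted p = 0.989. It was -0.046 without m31 replicate 4, -0.11 without control replicate 3 and -0.15 without both, and with each library left out in turn it took either sign, from -0.11 to 0.097. Chrne (ENSMUSG00000014609, chr11:70614883-70619216, minus strand) overlaps 4930544D05Rik on the opposite strand. Since the strand setting of the counting is not given in the sources used here, reads of these genes cannot be told apart.

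Chrng, the gamma subunit that the adult receptor replaces, was near the limit of detection in most libraries and varied more than any other of the 10. It had 2.85, 5.39, 9.10 and 40.9 normalised reads with m31, from 3, 6, 10 and 51 reads. The controls had 3.35, 1.91, 36.0 and 1.33, from 4, 2, 32 and 1 read. In each group a single library was high, m31 replicate 4 and control replicate 3, and the remaining 6 libraries had at most 10 reads. The group means of 14.6 ± 17.7 and 10.6 ± 16.9 (SD, n = 4 each) each carry an SD larger than the mean. The log2 difference was 0.81 ± 0.93 (SE), with limma's adjusted p = 0.893. Single libraries set its size: it was 0.13 without m31 replicate 4, 1.71 without control replicate 3 and 1.02 without both, with limma's adjusted p at 0.988, 0.416 and 0.521. These fits kept Chrng, although its mean of 12.6 over all libraries reached the minimum of 10 only through those 2. Chrng (ENSMUSG00000026253) lies on chr1:87204657-87212694, plus strand; its annotation has a start upstream of the RefSeq start, so the stretch printed above falls inside the annotated gene.

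**Figure D2:**
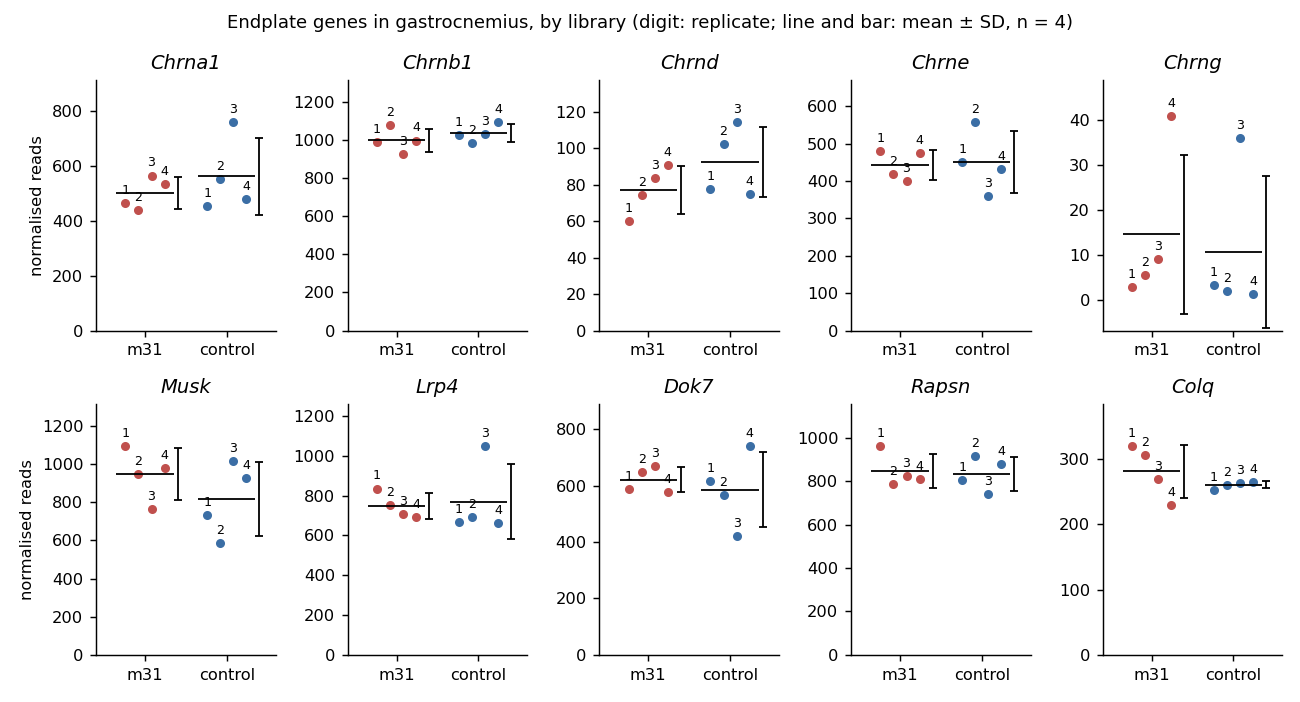
Normalised reads of each of the 10 genes in each library, m31 and control replicates 1 to 4, as points with the mean and SD of each group. The groups overlap in every gene, and Chrng is high in m31 replicate 4 (40.9) and control replicate 3 (36.0) only.

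The fetal to adult ratio was taken as the share of Chrng reads among Chrng and Chrne reads together. It was 0.591% (exact 95% binomial interval 0.122 to 1.72), 1.27% (0.469 to 2.75), 2.23% (1.08 to 4.07) and 7.94% (5.97 to 10.3) in m31 replicates 1 to 4. In control replicates 1 to 4 it was 0.739% (0.202 to 1.88), 0.340% (0.0412 to 1.22), 9.09% (6.30 to 12.6) and 0.307% (0.00777 to 1.70). These Clopper-Pearson intervals cover counting error only, since reads without molecular identifiers are not independent molecules. The intervals of m31 replicate 4 and control replicate 3 overlapped each other and lay wholly above those of the other 6 libraries. In those 6 the share ranged from 0.307 to 2.23%, and their intervals all overlapped.

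Between guides the share averaged 3.01 ± 3.36% with m31 and 2.62 ± 4.32% with the control guide (SD, n = 4 each), a difference of 0.39 percentage points with an exact two-sided permutation p of 0.743. On the scale log2((Chrng + 1)/(Chrne + 1)) the libraries stood at -6.96, -6.03, -5.31 and -3.50 with m31 and at -6.69, -7.59, -3.29 and -7.54 with the control guide. The means were -5.45 ± 1.47 and -6.28 ± 2.04 (SD, n = 4 each). Their difference of 0.83 gave an exact two-sided permutation p of 0.514, where 0.0286 is the smallest value the 70 arrangements allow. Without m31 replicate 4 the difference was 0.18, without control replicate 3 it was 1.82, and without both it was 1.17, with exact permutation p of 0.943, 0.114 and 0.2. With 3 libraries in each group the smallest p possible is 0.1, so the last of these could not pass the threshold. In control replicate 3 both sides of the ratio moved, since Chrng was the highest and Chrne the lowest of its group. In m31 replicate 4 Chrne (474) stayed within the range of its group, and Chrng alone was high.

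**Figure D3:**
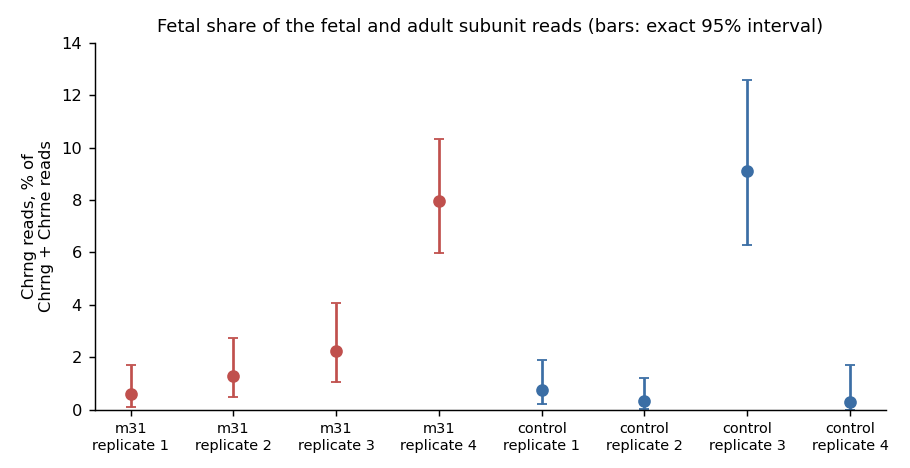
Share of Chrng among Chrng and Chrne reads in each library, in percent, with exact 95% binomial intervals for counting error. m31 replicate 4 (7.94%) and control replicate 3 (9.09%) lie above the other 6 libraries, which reach at most 2.23%.

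Musk encodes the receptor kinase that agrin activates through LRP4. Musk stood at 1095, 947, 766 and 979 normalised reads with m31, against 732, 585, 1016 and 929 under the control guide. The lowest values were those of control replicates 2 and 1, and control replicate 3 lay above 3 of the 4 m31 libraries. Means were 947 ± 136 and 815 ± 194 (SD, n = 4 each), a log2 difference of 0.24 ± 0.17 (SE) with limma's adjusted p = 0.836. Leaving out single libraries moved it between 0.087 (without control replicate 2) and 0.35 (without control replicate 3). Musk (ENSMUSG00000057280) lies on chr4:58285960-58374303, plus strand, and its RefSeq promoter held 3 E-boxes, as did that of Chrnb1.

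Lrp4, the agrin receptor, had 836, 751, 709 and 694 normalised reads with m31, against 667, 694, 1049.7 and 662 under the control guide. Control replicate 3 was far above the rest, and the other 3 controls lay below the lowest m31 library, control replicate 2 only just. The means were 747 ± 63.6 and 768 ± 188 (SD, n = 4 each), and the log2 difference was -0.015 ± 0.15 (SE) with limma's adjusted p = 0.987. Without m31 replicate 4 it was 0.020, without control replicate 3 it was 0.14 and without both it was 0.18, all of the other sign and none past the threshold (limma's adjusted p = 0.50 without both). Lrp4 (ENSMUSG00000027253) lies on chr2:91457511-91513779, plus strand.

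Dok7, the adaptor that MuSK needs for its activation, had 589, 648, 669.9 and 578 normalised reads with m31, against 616, 566, 420.3 and 741 under the control guide. Both the highest and the lowest library were controls, replicates 4 and 3. The means of 621 ± 44.8 and 586 ± 133 (SD, n = 4 each) gave a log2 difference of 0.11 ± 0.15 (SE), with limma's adjusted p = 0.911. Without control replicate 3 the difference was -0.039, and without m31 replicate 4 as well it was -0.0050. Dok7 (ENSMUSG00000044716) lies on chr5:35056766-35087839, plus strand.

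Rapsn, which encodes the scaffold rapsyn, had 962, 786, 825 and 811 normalised reads with m31, against 803, 916, 739.5 and 877 under the control guide. The groups were interleaved, with control replicate 3 again the lowest. Means were 846 ± 79.0 and 834 ± 78.3 (SD, n = 4 each), a log2 difference of 0.021 ± 0.099 (SE) with limma's adjusted p = 0.978. It was 0.040 without m31 replicate 4, -0.035 without control replicate 3 and -0.016 without both. Rapsn (ENSMUSG00000002104, chr2:91035620-91045729, plus strand) overlaps Gm13778 on the opposite strand.

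Colq had 320.0, 306, 269 and 229 normalised reads with m31, against 253, 260.4, 263 and 265 under the control guide. The 4 controls lay close together, and m31 values fell on both sides of them, lowest in replicate 4. The means of 281 ± 40.8 and 260.3 ± 5.41 (SD, n = 4 each) gave a log2 difference of 0.099 ± 0.12 (SE), with limma's adjusted p = 0.893. It was 0.19 without m31 replicate 4, 0.20 without control replicate 3 as well, and 0.034 and 0.055 without m31 replicates 1 and 2. The coefficient of variation was 14.5% with m31 and 2.08% with the control guide, beside a median over all tested genes of 12.2% and 15.2%; the difference in spread was not tested. Colq (ENSMUSG00000057606, chr14:31523082-31591343, minus strand) overlaps Gm24057 and Gm49387 on its own strand, so their reads may be shared.

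Across the 8 libraries the highest value was 30.7 times the lowest for Chrng, and from 1.19 times (Chrnb1) to 1.92 times (Chrnd) for the 9 others. Control replicate 3 was the highest of the 8 for 3 of the 10 genes (Chrna1, Chrnd and Lrp4) and the lowest of the 8 for 3 (Chrne, Dok7 and Rapsn). Over all tested genes it was the highest in 16.5% and the lowest in 20.8%. m31 replicate 4 was the highest of the 8 for Chrng only and the lowest for Colq only, beside 16.5% and 13.2% of tested genes. Within the control group, replicate 3 was the highest in 5 of the 10 genes (Chrna1, Chrnd, Chrng, Musk and Lrp4) and the lowest in 3 (Chrne, Dok7 and Rapsn), beside 31.8% and 32.7% of all tested genes. Within the m31 group, replicate 4 was the highest for Chrnd and Chrng and the lowest for Lrp4, Dok7 and Colq, beside 29.8% and 30.3%. The genes did not move as a block in either library: in control replicate 3 the alpha, delta and gamma subunits were high where epsilon was low, and Musk and Lrp4 were high where Dok7 and Rapsn were low.

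Levels of different genes were compared per kilobase of annotated exon (normalised reads divided by the length of the union of all annotated exons, a scale that counts exons muscle may not use). Rapsn had the highest level, with a mean over the 8 libraries of 466 and a range of 410.4 to 534, followed by Chrnb1 at 402 (366 to 434), whose range overlapped that of Rapsn. Chrne at 264 (213 to 331) and Musk at 233 (155 to 289.97) came next and overlapped each other. Dok7 at 141 (98.3 to 173) and Chrna1 at 121 (101 to 174) likewise did not separate. Below them were Lrp4 at 72.1 (63.0 to 99.9) and Colq at 71.2 (60.3 to 84.2), then Chrnd at 25.8 (18.2 to 34.9) and Chrng at 3.03 (0.320 to 9.82). Of these neighbours in the order, the ranges of Chrnb1 and Chrne, of Chrna1 and Lrp4, of Colq and Chrnd and of Chrnd and Chrng did not overlap.

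The subunits of the receptor were thus far from equal at the RNA level. Per kilobase, Chrnd was 4.65 to 8.54% of Chrnb1 in the 8 libraries, with a median of 6.39%. Chrng per kilobase was 0.241, 0.524, 0.927 and 3.50% of Chrne in the m31 libraries and 0.302, 0.139, 4.06 and 0.125% in the controls. The ratio of Chrna1 to Chrne normalised reads was 0.968 to 2.12, with a median of 1.08, and the highest value was again that of control replicate 3.

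**Figure D4:**
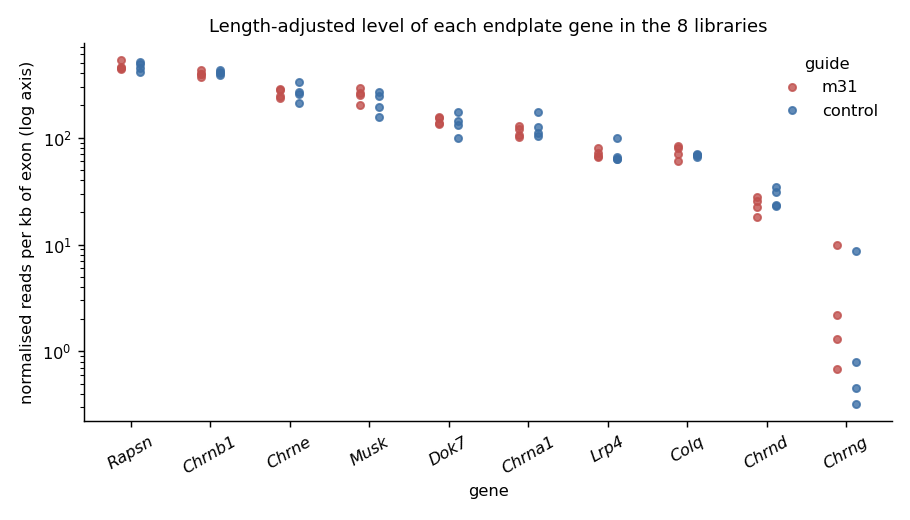
Normalised reads per kilobase of annotated exon for the 10 genes, 1 point per library, on a log axis. Rapsn (mean 466) and Chrnb1 (402) are highest, and Chrng (3.03) is lowest and most spread.

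The genes around the junction were read from lists by role, and 0 genes of any of these lists passed limma's adjusted p of 0.05. The other nicotinic subunits, of neurons and other cells, had 3 genes tested of 11 listed. All 3 were lower with m31 in sign, with a median log2 difference of -0.52, and 1 had an unadjusted p under 0.05, beside 6.79% of all tested genes. That gene was Chrna10, a subunit of hair cell receptors, at 51.3 ± 11.1 against 76.2 ± 19.5 normalised reads (SD, n = 4 each), a log2 difference of -0.55 ± 0.22 (SE) with limma's adjusted p = 0.720. Chrna5, Chrna7, Chrna9 and Chrnb2 were under the minimum mean of 10, and Chrna3, Chrna6, Chrnb3 and Chrnb4 were not analysed here.

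Agrin and the proteins acting below MuSK had 20 genes tested, 10 with positive and 10 with negative differences, a median of 0.0069 and none at an unadjusted p under 0.05. The smallest p-values were those of Crk, an adaptor that binds DOK7 (log2 difference -0.20), Shc4 (-0.41), Rac1, a small GTPase of receptor clustering (0.11), and Ptpn11, the phosphatase SHP2 (0.092). Acetylcholine breakdown and the synaptic matrix had 13 genes, 9 positive and 4 negative, with a median of 0.12 and again none at an unadjusted p under 0.05. Their smallest p-values belonged to Prima1, the membrane anchor of neuronal acetylcholinesterase (-0.41), Nid2 (0.30), Lama4, a laminin chain of the synaptic basal lamina (0.25), and Bche, butyrylcholinesterase (-0.23).

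The postsynaptic membrane and its cytoskeleton had 13 genes, 5 positive and 8 negative, with a median of -0.070 and none at an unadjusted p under 0.05. This list includes Etv5, an Ets factor that the next list holds too; the 12 others were 4 positive and 8 negative, with a median of -0.082. Among those with the smallest p-values of that list were Ank3, the sodium channel anchor ankyrin-G (-0.19), Dtna, alpha-dystrobrevin (-0.15), and Plec, plectin (-0.26). Neuregulin receptors and Ets factors, which drive transcription in subsynaptic nuclei, had 8 genes tested of 10, with 4 of each sign and a median of 0.0043. The largest of their 4 named differences in size was -0.24, for Etv4, beside 0.22 for Ets2, 0.21 for Etv5 and 0.19 for Gabpb1. Of the 5 glycosylation genes of congenital myasthenia, 1 was positive and 4 negative, all between -0.089 (Alg14) and 0.039 (Gmppb), with Dpagt1 at -0.030 and Alg2 at -0.028. Neither of these lists had a gene at an unadjusted p under 0.05.

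Myogenic factors and their partners, the class of protein that reads E-boxes, had 10 genes, 5 of each sign, with a median of -0.028. At an unadjusted p under 0.05 there were 3, beside the 6.79% of all tested genes: Id3 (-0.49) and Id1 (-0.67), inhibitors of the class, and Tcf3 (0.32), its common partner, with limma's adjusted p at 0.720, 0.731 and 0.720. Id3 was the only one of the list whose groups did not overlap (3.85% of all tested genes), with 250.7 to 526 normalised reads with m31 against 535 to 602 with the control guide. Myod1 had a difference of 0.31 with limma's adjusted p = 0.813.

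Genes known to respond to denervation, leaving out the receptor genes, had 15 tested of 16, with 6 positive and 9 negative differences and a median of -0.0996. Dach2 and Hdac9 among them are known to fall in denervated muscle, and without this pair 6 were positive and 7 negative, with a median of -0.070. At an unadjusted p under 0.05 there were 2 of 15, both lower with m31, beside 6.79% of all tested genes. Hdac4, a deacetylase that represses Dach2 and so acts upstream of myogenin, had 1144, 1143, 1049 and 1023 normalised reads with m31, against 1307, 1240.1, 1398 and 1836 under the control guide, with no overlap, beside 3.85% of tested genes without overlap. Its log2 difference was -0.39 ± 0.12 (SE), with limma's adjusted p = 0.647. Fbxo32, the ubiquitin ligase atrogin-1, had a difference of -0.38 with limma's adjusted p = 0.705. Dach2 (-0.49) had an unadjusted p above 0.05.

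Some genes of immature or denervated fibres were high in the same 2 libraries as Chrng. The next 5 were chosen after their values were seen. Myh3, the embryonic myosin heavy chain, stood at 118, 70.1, 193 and 344 normalised reads with m31, against 90.4, 106, 681 and 123 under the control guide. Myog, myogenin, had 91.2, 108, 92.8 and 187 with m31 and 105, 126, 189 and 61.3 with control. In both genes m31 replicate 4 and control replicate 3 were the highest of their groups, as they were for Chrng. Runx1, a transcription factor induced by denervation, had 81.7, 77.3, 90.1 and 181 against 61.9, 59.1, 189 and 98.6. Ncam1, an adhesion molecule that spreads over denervated fibres, had 138, 132, 149 and 204 against 129.7, 174, 229 and 131. Mymk, myomaker, which fuses myoblasts, had 5.70, 3.59, 3.64 and 84.9 against 3.35, 1.91, 40.5 and 1.33, with a log2 difference between guides of 0.83 and limma's adjusted p = 0.904. These 5 were picked for this pattern, so their values describe it and do not support it. Of the 15 denervation genes as a whole, 10 had their highest m31 value in replicate 4, 8 had their highest control value in replicate 3, and 5 had both, beside 29.8% and 31.8% of all tested genes for the first and the second. Myh3, Myog, Runx1 and Ncam1, picked above for this pattern, are in each of these counts, so the counts give it no separate support. The share of all tested genes with both was not taken, so the count of 5 has no background beside it.

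**Figure D5:**
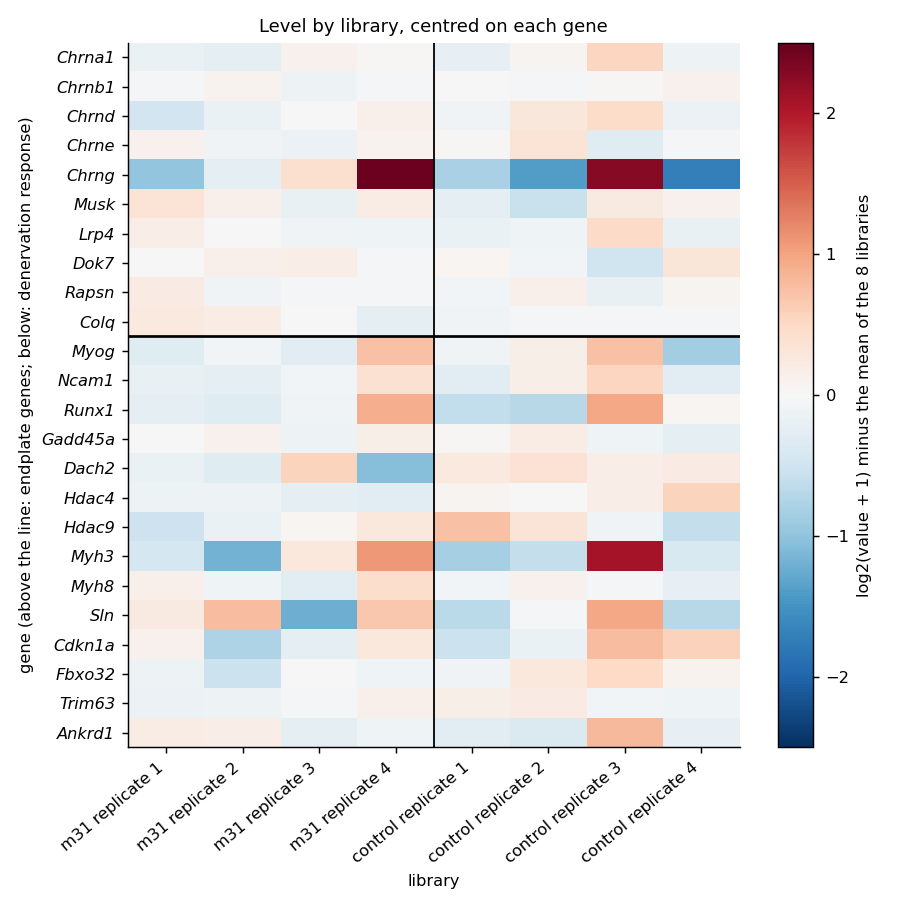
Colour map of the 10 endplate genes (above the line) and of denervation response genes (below) in the 8 libraries, as log2(value + 1) minus that gene's mean over the 8 (red above, blue below). Control replicate 3 is above the mean for Chrna1, Chrnd, Chrng, Musk and Lrp4 and below it for Chrne, Dok7 and Rapsn; Myog, Ncam1, Runx1 and Myh3 are red in m31 replicate 4 and control replicate 3.

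Markers of other cells were read in the same libraries. All 10 macrophage markers and all 10 fibroblast and matrix markers had their highest m31 value in replicate 4 and their highest control value in replicate 3. Over all tested genes these shares were 29.8% and 31.8%. Per library the macrophage sum was 4090.1, 4896, 3962 and 9590.3 with m31 and 3162, 2878, 6776 and 3302 with control. The matrix sum was 48826, 65473, 60723 and 196423 against 45928, 37426, 67234 and 36553. Both sums were thus highest in each group in the library with the highest Chrng; their part in the Chrng values was not tested. Between guides all 10 of each list were positive, with medians of 0.52 for macrophages and 0.69 for matrix beside 0.0052 over all tested genes; at an unadjusted p under 0.05 were 1 of 10 (Fcgr1) and 3 of 10 (Lox, Col1a1 and Col1a2), beside 6.79% of all tested genes.

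Of the 8 satellite cell markers, of the muscle stem cells, 4 were highest of their group in m31 replicate 4 and 4 in control replicate 3. All tested genes had shares of 29.8% and 31.8%. Both held for 2 of the 8, Vcam1 among them, and the share of all tested genes with both was not taken. Vcam1, an adhesion molecule also made by other cells, reached 220.3 in m31 replicate 4 (at most 117 in the other m31 libraries). In control replicate 3 it reached 158 (at most 101 in the other controls). Sdc4 was the lowest of the m31 group in replicate 4 (545) and the highest control in replicate 3 (1122). Pax7 and Chodl were highest of the m31 group in replicate 4. In control replicate 3 (85.4 and 253) they lay below control replicate 1 (105 and 259). The summed level, most of it Itga7, an integrin gene noted after its values were seen, was 5261, 5406, 4741 and 4901 with m31 and 5022, 5245, 5477 and 4957 with control, and 5 of the 8 were positive, with a median of 0.053. Motor axon markers, which are carried by nerve running through the muscle, had 3 genes tested of 10. The 5 that were analysed had a summed level of 39.5 to 67.3 with m31, against 42.6 to 59.1 in the controls. Of the markers in these cell type lists that were analysed, 0 were at 0 in all 8 libraries, which leaves out the 5 motor axon markers not analysed. The 3 motor axon genes were Syt2 (-0.61), Gap43 (0.63) and Prph (-0.30), none at an unadjusted p under 0.05. Schwann cell markers summed to 7966, 6835, 5417 and 6459.8 with m31 and to 10666, 5869, 9711 and 9747 with control. Of the 12, 11 were negative, with a median of -0.35 beside 0.0052 over all tested genes, and 3 had an unadjusted p under 0.05, beside 6.79%, among them Prx, periaxin of peripheral myelin, with limma's adjusted p = 0.720. The part of nerve in the endplate values was not tested.

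Junctions are known to differ between fibre types. All 8 slow-fibre genes were negative, with a median of -0.48, and 5 had an unadjusted p under 0.05, beside 6.79% of all tested genes. Among them were Myh7 (-0.64, limma's adjusted p = 0.698) and Tpm3 (-0.52, limma's adjusted p = 0.627), whose groups did not overlap, beside 3.85% of all tested genes. Their sum was 29894, 32056, 40796 and 19291 with m31 and 42589, 42897, 33869.8 and 39231 with control, lowest in each group in m31 replicate 4 and control replicate 3. Of the 10 fibre genes in general, 9 were negative, with a median of -0.12 and 2 at an unadjusted p under 0.05, again beside 6.79%. The labelled tissue was checked on Acta1, skeletal actin, which had 874617 ± 29185 normalised reads with m31 and 909380 ± 161134 with control (SD, n = 4 each). Endothelial markers had 6 of 8 positive and a median of 0.053, and heart markers 5 of 5 tested of 7, with a median of 0.60 and sums of 1914 to 2065 with m31, against 879 to 2783 in the controls; neither list had a gene at an unadjusted p under 0.05. The part of fibre composition in the endplate values was not tested.

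The genes whose pattern was most like those of Chrna1 and Chrng were found by Pearson's r of log2(value + 1) over the 8 libraries, each group centred on its own mean. They were picked as the highest of the genes tested, so high values follow from the choice and are given as a description. The libraries share their depth and size factors between genes. Most like Chrna1 were Nes (r = 0.997), Ppp2r1b (0.987), Chml (0.966), H19 (0.963) and Fancg (0.956). Without m31 replicate 4 and control replicate 3, the same r over 6 libraries was 0.997, 0.974, 0.869, 0.974 and 0.880. Nes encodes nestin, an intermediate filament protein known at the muscle endplate; its levels were 1444, 1382, 1676 and 1647 with m31 and 1706, 1954, 2547 and 1755 with control. Within each group, Nes ranked the libraries in the same order as Chrna1. Between guides Nes did not overlap, with m31 below control, beside 3.85% of tested genes without overlap, whereas the groups of Chrna1 overlapped. The log2 difference of Nes was -0.36, with limma's adjusted p = 0.698. Centring each group on its own mean leaves that difference out of r.

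Most like Chrng were Thy1 (r = 0.987), Slc36a4 (0.985), Arhgap9 (0.982), S1pr2 (0.981) and Tram1 (0.981). Without the same 2 libraries, r over 6 was 0.929, 0.945, 0.856, 0.918 and 0.985. Chrng itself rests on at most 10 reads in those 6, where counting error is large. Thy1, a surface glycoprotein of T cells, nerve and fibroblasts, had 334, 383, 388 and 599 normalised reads with m31, against 271, 245, 408 and 231 under the control guide. Its highest libraries were again m31 replicate 4 and control replicate 3.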

How the data were processed

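Total RNA of 8 gastrocnemius samples was sequenced after NEBNext Ultra library preparation, per the labels' protocols. The deposited table holds normalised signal, that is, reads per gene divided by a size factor for the library; STAR and DESeq2 are named in the submitters' processing notes without versions, with the human build GRCh38.p12 beside mouse gene identifiers. The sources used here give neither the counting program nor its strand setting or annotation. Of 11 value columns, 8 match the labelled libraries and 3 were not used. The table has 23013 entries, of which 5 are construct sequences, left out of tests and totals. Whole reads were recovered for 100% of values within 0.01 of a read.

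Values were tested as log2(value + 1), for the genes with a mean of at least 10, with limma 3.58.1 (intensity trend, no covariate) in R 4.3.3, and p-values were adjusted by Benjamini-Hochberg over all 15960 genes, with a threshold of 0.05. Fold changes of low genes on this scale depend on the pseudocount. The ratio was tested by an exact two-sided permutation test. The code was tested on simulated data. The design foresaw this test for normalised values. edgeR 4.0.16 and DESeq2 1.42.0 on the recovered reads, other filters, pseudocounts and scalings, library weights, a replicate block and left-out libraries were alternatives. Where libraries were left out, the genes tested stayed those chosen over all libraries. Members, gene lists and tests were chosen with earlier results of these data known. Genes named with values were the 10 members, up to 4 per list with the smallest p, the 5 most like Chrna1 and Chrng, and Lama1. Acta1, outside this rule, was named to check the tissue. Any other is said to have been chosen after its values were seen. Some genes of the lists are counted but not reported here by name. No 2 libraries of a group agreed within sampling noise (chi-square per degree of freedom 12.97 to 52.24).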

Additional observations from a re-analysis of the deposited data

Results flagged for a closer look

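In groups of 4 libraries, a single library lay far from the other 3 in 4 of 24 groups of values checked, where chance gives about 1 in 20 if values are normally distributed. The check was made on normalised reads; on the log2(value + 1) scale of the test, among the 10 genes only Lrp4 in the control group lay past the same limit, and Chrng in neither group. Chrng was 40.9 normalised reads in m31 replicate 4, with the next m31 library at 9.10. Chrng was 36.0 in control replicate 3, with the next control at 3.35, and the share of Chrng among Chrng and Chrne reads was 9.09% there, with the next control at 0.739%; these rest on the same 32 Chrng reads and are not separate findings. Lrp4 was 1049.7 in control replicate 3, with the next control at 694. In m31 replicate 4 and control replicate 3 the summed macrophage markers were 9590.3 and 6776, and the matrix markers 196423 and 67234, in each case the highest of the group. Their part in the Chrng and Lrp4 values was not tested.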

How the results depend on the processing

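The 10 genes had 189 values under 19 alternatives, 0 with an adjusted p under 0.05 (smallest 0.326), and 173 kept their direction; Chrng has no value with a minimum mean of 50. The 16 that turned belong to Chrna1, Chrne, Dok7, Lrp4 and Rapsn, and the cause was not tested. With each library left out in turn, the log2 difference ranged from -0.24 to 0.013 for Chrna1, -0.11 to 0.097 for Chrne, -0.039 to 0.23 for Dok7, -0.076 to 0.14 for Lrp4, -0.042 to 0.068 for Rapsn, -0.092 to -0.018 for Chrnb1, -0.34 to -0.13 for Chrnd, 0.087 to 0.35 for Musk, 0.034 to 0.19 for Colq and 0.13 to 1.71 for Chrng, and that of the Chrng to Chrne ratio from 0.18 to 1.82. Chrne turned without m31 replicate 2, m31 replicate 3 or control replicate 2, and Rapsn without m31 replicate 1 or control replicate 3. Chrna1 and Dok7 turned without control replicate 3, and Lrp4 without that library, m31 replicate 3 or m31 replicate 4. Without m31 replicate 4 and control replicate 3 together, Lrp4 was 0.18, Dok7 -0.0050 and Rapsn -0.016. Recentring on library medians gave -0.014 for Rapsn, and library weights gave 0.10 for Lrp4 and -0.0069 for Rapsn. The low level of Chrng made its difference depend on the pseudocount, from 0.45 with 5 to 0.92 with 0.5.

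Over all tested genes, 1 passed the threshold, 1 to 2 with a library left out (2 without m31 replicate 1 or control replicate 4), 3 with both libraries left out and 37 with DESeq2 (23 higher and 14 lower with m31); none of these counts includes an endplate gene. Same-numbered libraries did not deviate together (r from -0.184 to 0.046). With so few libraries, each group centred on its own mean, these r values cannot exclude a shared batch or litter. The labels used here state no pairing, and the main test used none. With the replicate block 1 gene passed and 0 endplate genes, and the ratio's difference of 0.83 had an exact permutation p of 0.75; over 16 arrangements the smallest possible is 0.125, so that test could make no call.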
